A study of Mus musculus with 12 samples.

Results

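Hipk1 and 9 other rows of the gene count table were examined because several of them lie over, or inside, another annotated gene. The 10 members, of 21930 genes in the table, were Hipk1, Gm10964, Gm48551, Gm48552, Cdcp3, Gm42669, Gm49027, Diablo, Ip6k2 and Serinc4, and they were chosen by name. Their positions brought in 9 further rows that overlapped a member by at least 1 base, so that 19 rows in 7 loci were followed. RNA came from eye cups of male wild type C57BL/6J mice, labelled as RPE/choroid/sclera complex, with 3 mice in each of 4 groups. AL mice ate ad libitum and IF mice were fed on alternate days for 12 weeks from 8 weeks of age. Mice then received a single intraperitoneal injection of PBS or of NaIO3 at 25 mg/kg, an oxidant that damages the retinal pigment epithelium (RPE), and tissue was taken 7 days later. By the methods of the paper, each diet went on after the injection until the experiments ended. The groups are written AL + PBS, IF + PBS, AL + NaIO3 and IF + NaIO3. The paper combined both eye cups of a mouse in the RNA extraction described with its qPCR, and its RNA-seq section does not repeat this. Each library was taken to stand for 1 mouse.

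A read that falls where 2 annotated genes share sequence can be given to either of them, and the counting rule decides which. A read-through gene is an annotated transcript that starts in a gene and continues into exons of the next gene on the same strand, so that part of its bases also belong to a neighbour. For such rows a fall in a gene and a rise in its neighbour can appear together while the total over the locus stays the same, and the total is therefore given beside each member below.

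In GENCODE M39, Gm48551, Gm49027 and Gm42669 shared much of their transcript sequence with partners on the same strand. The members Gm48552 and Diablo, which are among those partners, shared sequence in turn. Stretches of 150 bases, the read length, were compared between transcripts. Of 1966 such stretches in Gm48551 transcripts, 41.9% were also in Dohh (deoxyhypusine hydroxylase) and 43.03% in Gm48552, and 296 (15.1%) were in neither. Gm49027 shared 76.2% of 4272 stretches with Diablo, which encodes a mitochondrial protein that binds inhibitors of apoptosis. Gm42669 shared 45.0% of 6103 stretches with 1700028K03Rik and 22.2% with Btbd8, and 2001 (32.8%) were in neither. In the other direction, Gm48552 shared 83.3% of 1016 stretches with Gm48551, and Diablo shared 37.4% of 8708 with Gm49027. The other loci differed from these. Serinc4 shared 20.01% of 5716 stretches with Ell3 on its own strand and 28.8% with Serf2 on the opposite strand, Cdcp3 shared 0 of 9343 with Fgfr2 on either strand, and no row of the table overlapped Ip6k2. GENCODE M39 places 2 non-coding genes that were not in the count table, Gm67861 and Gm23034, over Ip6k2 on the opposite strand. Among the counted rows Ip6k2 therefore had no partner, and Cdcp3 overlapped Fgfr2 by its span only.

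For Gm48551, Gm42669 and Gm49027 a stretch that belongs to no partner transcript is printed next, because reads across such bases could tell the rows apart. The lengths behind the FPKM, explained below, mostly lay away from the lengths of the transcripts printed. They were 1628 to 1755 bases for Gm48551 and, in AL + NaIO3, 1897 to 1898 bases for Gm49027. For Gm42669 they were 3103 to 3143 bases outside AL + NaIO3. Whether counted reads crossed the printed bases was not tested. In the first 2 sequences the lower case bases are the end of an exon shared with the first partner and the capitals are the start of the exon shared with the second, so the junction is particular to the member. The second exon of the Gm42669 pair has 94 bases, which is too short to hold a stretch of 150. Other bases of Gm42669 that no partner holds are not printed. The third is the whole coding stretch of the 346-base Gm49027 transcript (its bases 184 to 315), of which 0 of 113 windows of 20 bases were found in a Diablo transcript. All 3 were read from the GENCODE M39 transcripts in the 5′ to 3′ direction, and none of the 3 was found whole in a transcript of another row of its locus.
Gm48551 transcript of 672 bases, bases 347 to 406, Dohh exon to Gm48552 exon: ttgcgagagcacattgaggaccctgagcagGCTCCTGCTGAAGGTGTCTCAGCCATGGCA
Gm42669 transcript of 3445 bases, bases 1473 to 1532, Btbd8 exon to 1700028K03Rik exon: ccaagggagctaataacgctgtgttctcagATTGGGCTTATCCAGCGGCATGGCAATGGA
Gm49027 transcript of 346 bases, coding stretch: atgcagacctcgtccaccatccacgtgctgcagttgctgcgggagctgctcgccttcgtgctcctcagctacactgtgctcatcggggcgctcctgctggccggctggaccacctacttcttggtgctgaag

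**Figure D1:**
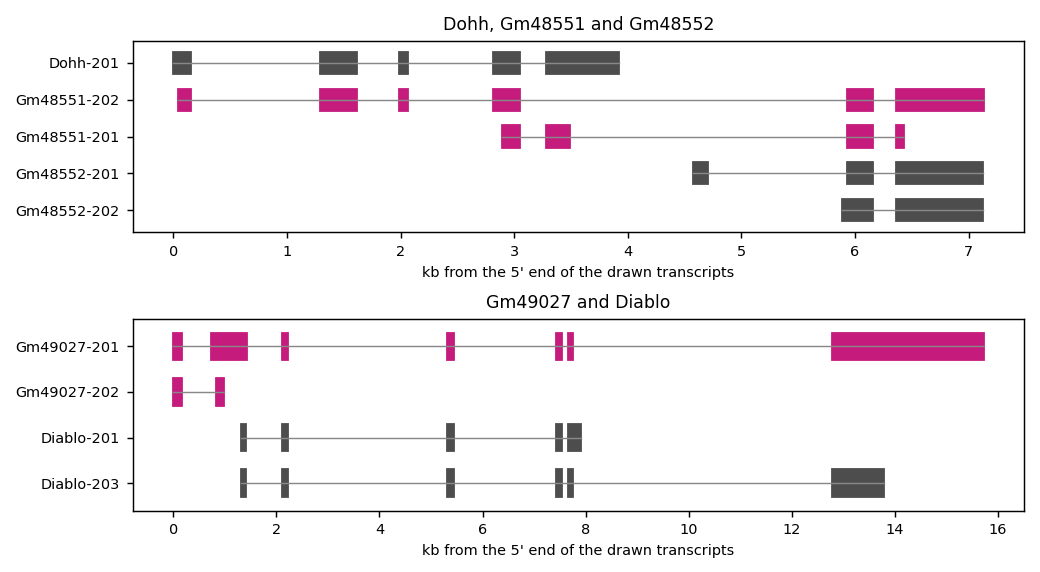
Exon models of GENCODE M39 for the Dohh, Gm48551 and Gm48552 locus (upper) and the Gm49027 and Diablo locus (lower), with the distance in kb from the 5′ end of the drawn transcripts on the x axis. Exons of Gm48551 and of Gm49027 are magenta and those of the partner genes are dark grey. Each exon of Gm48551 lies over an exon of Dohh or of Gm48552, and the first exon of Gm49027 lies upstream of Diablo.

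The libraries held between 26364665 and 43046950 counts. The defining RPE gene Rpe65 was present in each library, at 103 to 142 CPM in AL + PBS and 39.6 to 55.2 CPM in AL + NaIO3. The 10 RPE markers summed to 2183 to 2357 CPM in AL + PBS, 1170 to 2542 CPM in AL + NaIO3 and 1252 to 2187 CPM in IF + NaIO3. In all libraries 7 inner retina markers summed to 1365 to 1660 CPM (counts scaled to sequencing depth), so the tissue also held RNA of the neural retina. AL + NaIO3 replicate 3 stood apart: its 6 choroid and sclera markers summed to 1217 CPM against at most 188 CPM in AL + PBS. The 3 cornea markers summed to 422 CPM in AL + NaIO3 replicate 2 against at most 39.3 CPM in AL + PBS. In the order of replicates 1 to 3, 9 photoreceptor markers summed to 31241, 18924 and 9934.5 CPM in AL + NaIO3 against 26489 CPM or more in AL + PBS, and 6 macrophage and microglia markers to 64.1, 54.3 and 143 CPM against at most 32.3 CPM. These shifts lie in the group in which Gm42669 and Serinc4 were lowest and Gm49027 was high. In IF + PBS the choroid and sclera markers summed to 59.8 to 98.7 CPM against 121 to 188 CPM in AL + PBS, the cornea markers to 4.32 to 10.5 against 18.7 to 39.3 CPM and 4 skeletal muscle markers to 11.8 to 64.7 against 83.2 to 193 CPM. The 4 lens markers summed to 200.3 CPM in AL + PBS replicate 2 and to at most 4.91 CPM in any other library. The comparisons of Gm48551, Cdcp3 and Ip6k2 below use the same groups, and the part of tissue composition in the results was not tested. The edgeR fold changes of members that rest on AL + NaIO3 are given with and without replicate 3. In such bulk tissue, fewer cells of a type and less RNA per cell cannot be told apart.

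Of the 9 members that passed the filter on low counts (all except Gm10964), 5 were called between IF + NaIO3 and AL + PBS by the edgeR quasi-likelihood test, with adjusted p below 0.05 and the fold change no smaller than 1.5, against 0.0454% of all genes tested. With all 12 libraries fitted together none of the 5 was called (adjusted p from 0.979 to 0.992), with log2 differences from -2.77 for Hipk1 to 1.43 for Gm48551. In AL + NaIO3 against AL + PBS 2 members were called (0.0769% of all genes), in IF + NaIO3 against AL + NaIO3 1 member (0.0383%), and for the interaction of diet and injection 1 member (0.0313%). These calls are what chose most members, so nothing is read from the counts. In IF + PBS against AL + PBS and in IF + NaIO3 against IF + PBS 0 members and 0 genes were called (0% of all genes by edgeR), while 2623 and 2326 genes had an unadjusted p under 0.05 and DESeq2 called 171 (1.19%) and 80 genes. At the threshold, Ip6k2 lay just inside in IF + NaIO3 against AL + PBS (adjusted p = 0.0481 by edgeR) and Gm48551 just outside in IF + NaIO3 against AL + NaIO3 (adjusted p = 0.0595 by edgeR).

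**Figure D2:**
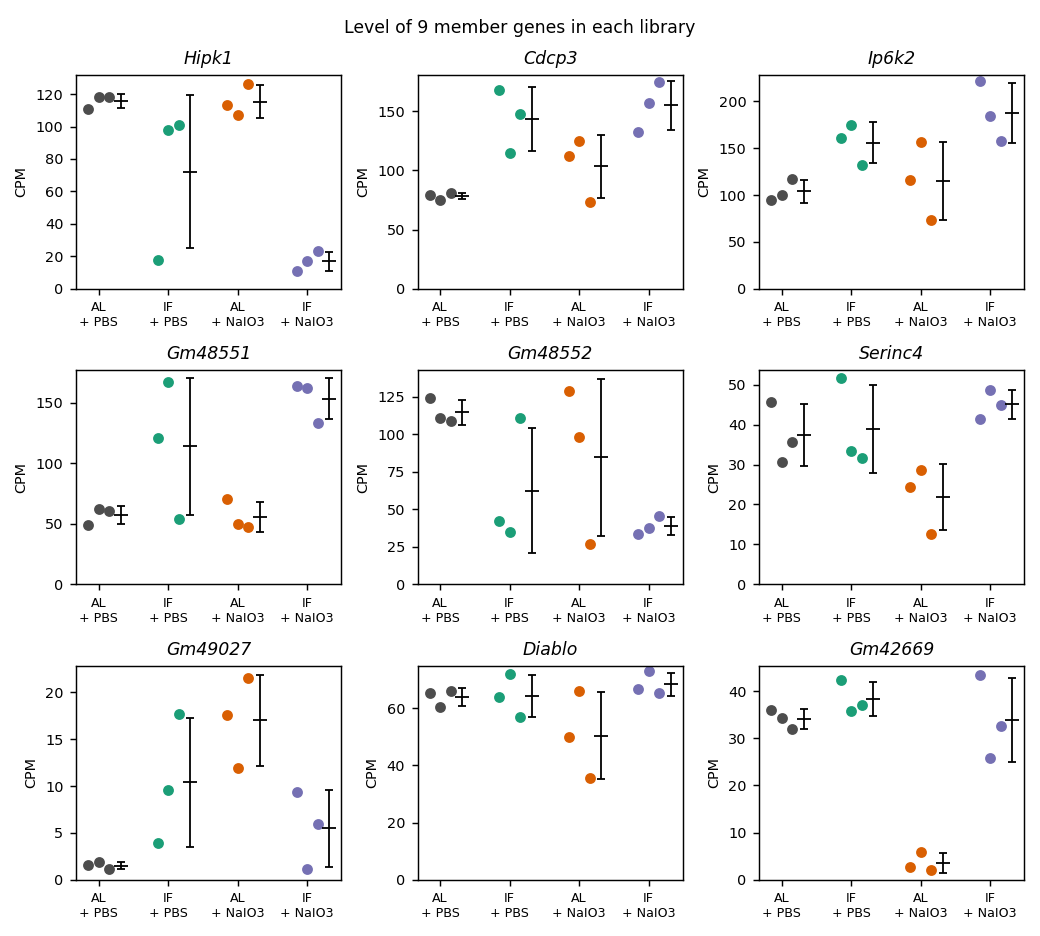
CPM of 9 members in each library (points) by group on the x axis, with the group mean and SD (n = 3) as a black bar beside the points. Hipk1 is low in the 3 IF + NaIO3 libraries and in 1 IF + PBS library, Gm42669 is low in the 3 AL + NaIO3 libraries, and Gm48551 and Gm48552 move in opposite directions in most IF libraries.

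Hipk1 encodes a nuclear serine/threonine kinase that phosphorylates homeodomain transcription factors and p53-related proteins. It lies at chr3:103739815-103791563 (GRCm38) on the minus strand. The AL + PBS libraries held 3449, 5001 and 3603 Hipk1 counts and the AL + NaIO3 libraries 3522, 3009 and 4703. The IF + NaIO3 libraries held 383, 612 and 665 counts, and the IF + PBS libraries 550, 3007 and 3265. Thus IF + PBS replicate 1 lay among the IF + NaIO3 libraries, and the other 2 IF + PBS libraries lay near the AL libraries.

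In CPM, Hipk1 was 116 ± 4.28 in AL + PBS and 115 ± 9.94 in AL + NaIO3 (SD, n = 3), but 16.9 ± 5.94 in IF + NaIO3 and 72.2 ± 47.3 in IF + PBS. The fitted log2 difference was -2.78 (SE 0.20) between IF + NaIO3 and AL + PBS, and it was -2.78 (SE 0.25) between IF + NaIO3 and AL + NaIO3. Both comparisons chose the gene and share the IF + NaIO3 libraries, and they are given as a description. Without AL + NaIO3 replicate 3 the second value was -2.71. The log2 difference in IF + NaIO3 against IF + PBS was -2.09 (SE 0.52, adjusted p = 0.212 by edgeR), and the groups overlapped. Without IF + PBS replicate 1 it was -2.56 (adjusted p = 0.00232), so that this library decided the call. The interaction of diet and injection was -2.09 on the log2 scale (adjusted p = 0.283 by edgeR), and -2.56 (adjusted p = 0.00815) without the same library. Without AL + NaIO3 replicate 3 it was -2.03 (adjusted p = 0.309). In AL + NaIO3 against AL + PBS the log2 difference of Hipk1 was 0.0041 (SE 0.11, adjusted p = 0.994 by edgeR), and it was -0.072 without AL + NaIO3 replicate 3.

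The overlapping partner did not hold the missing Hipk1 counts. Gm10964, at chr3:103739366-103746376 (GRCm38), overlapped the 3′ end of Hipk1 by 6562 bases, which is 93.6% of its own span. Its counts lay between 0 and 4 in the 12 libraries, and Hipk1 held 99.35% or more of the summed counts in each. The log2 difference of the summed locus between IF + NaIO3 and AL + PBS was -2.77 (SE 0.20), beside -2.78 for Hipk1 alone. GENCODE M39 also places Gm43149, Gm43387 and Gm15886, annotated as long non-coding RNAs, over Hipk1, and these were not in the count table.

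In the comparisons with IF + NaIO3, the Hipk1 FPKM values differed by less than its counts. FPKM is a count divided by the length of the transcript and by the depth, so the ratio of a count to its FPKM returns a length, a single value per gene and library. Scaled in each library by 270 genes with a single annotated transcript, this length matched the annotation of those genes, with quartiles of the ratio at 0.9998 and 1.0005. For genes with several transcripts it was not checked and can lie near none of them, as for Gm48552 and Gm49027 below. For Hipk1 it was 7586, 6526 and 7498 bases in AL + PBS and 7802, 7654 and 5683 bases in AL + NaIO3. It was 3776, 3828 and 3802 bases in IF + NaIO3, and 3829, 7812 and 7741 bases in IF + PBS. The 4 libraries with few Hipk1 counts were therefore those with the short length, including IF + PBS replicate 1.

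The largest Hipk1 length was 2.07 times the smallest, a ratio exceeded by 40 of 10652 genes with at least 200 counts in each library (0.376%), whose median ratio was 1.08. GENCODE M39 lists 13 protein-coding Hipk1 transcripts, of which 8 have 7385 to 8363 bases and 5 have 3493 to 4871 bases. The last exon of the 8 long transcripts has 3904 to 4625 bases and that of the 5 short ones 245 to 1390 bases. In FPKM, Hipk1 was 13.2 ± 1.34 in AL + PBS and 3.52 ± 1.30 in IF + NaIO3 (SD, n = 3). On the log2(FPKM + 0.1) scale the difference was -1.94 (SE 0.23), compared with -2.78 on counts. The mean FPKM was 14.8 ± 5.34 in AL + NaIO3 and 8.36 ± 3.95 in IF + PBS. Between IF + PBS and AL + PBS the FPKM difference was -0.79 on the same scale, compared with -0.68 on counts.

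**Figure D3:**
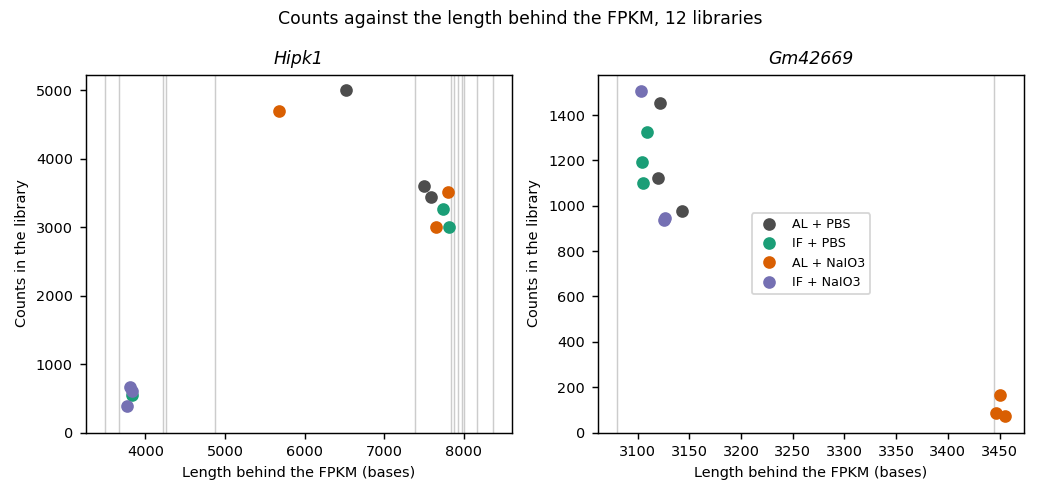
Counts of Hipk1 (left) and Gm42669 (right) in the 12 libraries against the transcript length in bases recovered from the ratio of count to FPKM, coloured by group, with the lengths of annotated protein-coding transcripts as grey lines. The 4 Hipk1 libraries at 3776 to 3829 bases have at most 665 counts, and the 3 Gm42669 libraries near 3450 bases have at most 167 counts.

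The 3 genes with the highest Pearson correlation with Hipk1 over the 12 libraries, among the 15970 genes tested, were Edaradd (r = 0.90), Alpk3 (r = 0.88) and Hlx (r = 0.87). The 3 lowest were Adamts19 (r = -0.87), Slc18a2 (r = -0.84) and Ssbp1 (r = -0.84). These values are a description of 12 libraries that share depth and groups. Edaradd, Alpk3 and Hlx had at most 35, 61 and 62 counts in any library, so their correlations rested on few reads. Of the fixed list of HIPK and DYRK kinases and HIPK partners, 16 of 17 genes were tested. Hipk1 itself was the 1 gene called lower in IF + NaIO3 against AL + NaIO3, and 0 were called higher. The median log2 difference of that list was 0.0018, and that of all genes was -0.013.

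Gm48551 and Gm48552 showed the clearest opposite changes of overlapping rows. Gm48551 lies at chr10:81384466-81391560 (GRCm38), and it begins within Dohh (chr10:81384428-81388352) and covers the whole of Gm48552 (chr10:81389005-81391267), all on the plus strand. Gm48551 was 48.6, 61.7 and 60.5 CPM in AL + PBS, and 164, 162 and 133 CPM in IF + NaIO3. Gm48552 was 124, 111 and 109 CPM in AL + PBS, and 33.2, 37.8 and 45.6 CPM in IF + NaIO3. For neither row did the groups overlap, as for 17.8% of the genes tested, and the rows moved in opposite directions.

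The other libraries followed either pattern. In IF + PBS, replicates 1 and 2 had 121 and 167 CPM of Gm48551 with 41.9 and 34.7 CPM of Gm48552, as in IF + NaIO3. IF + PBS replicate 3 had 54.2 CPM of Gm48551 and 111 CPM of Gm48552, as in AL + PBS. AL + NaIO3 replicates 1 and 2 also resembled AL + PBS, with 70.1 and 49.8 CPM of Gm48551 and 129 and 98.4 CPM of Gm48552. Only AL + NaIO3 replicate 3 had little of both (47.6 and 26.7 CPM). AL + PBS and IF + NaIO3 chose Gm48551, so their difference is a description. Of the other groups, AL + NaIO3 was low in Gm48551 in each library, and IF + PBS was high in replicates 1 and 2 only.

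Over the 12 libraries the sum of the 2 rows varied less than either. The sum was 172 ± 2.06 CPM in AL + PBS, 176 ± 21.9 in IF + PBS and 192 ± 11.2 in IF + NaIO3 (SD, n = 3). In AL + NaIO3 it was 140 ± 62.6 CPM, with the lowest value, 74.3 CPM, in replicate 3. Over the 12 libraries the coefficient of variation was 52.7% for Gm48551, 54.7% for Gm48552 and 20.4% for their sum. Gm48551 held 28.1% to 35.8% of the sum in AL + PBS and 74.5% to 83.1% in IF + NaIO3, the groups that chose the rows. In the others it held 32.9% to 82.8% (IF + PBS) and 33.6% to 64.1% (AL + NaIO3), which overlap, and the 64.1% was that of AL + NaIO3 replicate 3. The lowest share in IF + NaIO3, 74.5% of 5197 counts, had an exact 95% binomial interval of 73.3% to 75.7%, which covers counting error only.

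The difference between IF + NaIO3 and AL + PBS was 1.42 (SE 0.11) for Gm48551 and -1.56 (SE 0.12) for Gm48552 on the log2 scale, and this comparison chose both. With Dohh included, the summed locus differed by 0.069 (SE 0.073, adjusted p = 0.739 by edgeR). Dohh itself, which makes the hypusine of eIF5A, had 34.9, 38.0 and 33.7 CPM in AL + PBS and 27.2, 22.5 and 27.0 CPM in IF + NaIO3. Its log2 difference was -0.48 (SE 0.11, adjusted p = 0.185 by edgeR), with groups that did not overlap, which is the case for 17.8% of genes. The length behind the FPKM of Gm48551 stayed between 1628 and 1755 bases in all 12 libraries, near the 1758 bases of the longer annotated Gm48551 transcript, and that of Gm48552 between 623 and 645 bases, shorter than both of its annotated transcripts (1118 and 1040 bases). The lengths thus changed little where the counts of Gm48551 and Gm48552 differed in opposite directions. Whether reads were given to a different row or the RNAs themselves changed was not tested.

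Between IF + NaIO3 and AL + NaIO3 the log2 difference was 1.45 (adjusted p = 0.0595 by edgeR) for Gm48551 and -1.13 (adjusted p = 0.415) for Gm48552. Without AL + NaIO3 replicate 3 the values were 1.34 (adjusted p = 0.0146) and -1.56 (adjusted p = 0.00575). These libraries of IF + NaIO3 are those that chose the rows. In IF + PBS against AL + PBS, which shares the AL + PBS libraries with the choice, the log2 difference was 1.00 (adjusted p = 0.194 by edgeR) for Gm48551 and -0.87 (adjusted p = 0.252) for Gm48552. Without IF + PBS replicate 3 the values were 1.34 (adjusted p = 0.0995) and -1.57 (adjusted p = 0.00942).

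**Figure D4:**
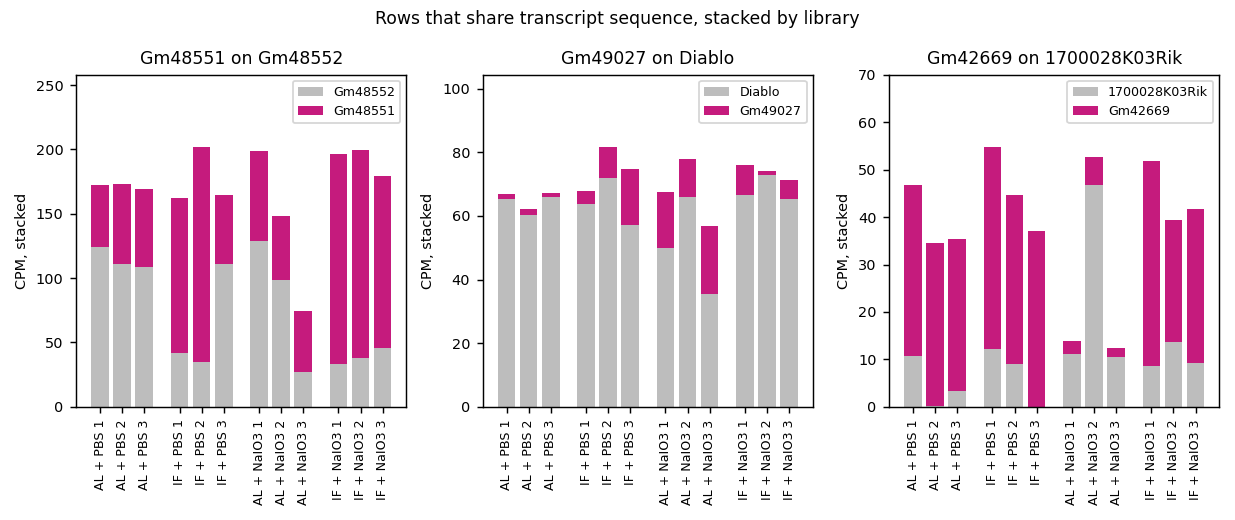
CPM of 3 members (magenta) stacked on a row they share transcript sequence with (grey), for each of the 12 libraries, so that the height of a bar is the summed CPM. The Gm48551 share is large in IF libraries except IF + PBS replicate 3 and also in AL + NaIO3 replicate 3 (64.1%), Gm49027 is a thin layer on Diablo in AL + PBS (at most 3.03%) and up to 37.7% of the bar in AL + NaIO3, and Gm42669 is nearly gone from the 3 AL + NaIO3 bars.

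Gm49027 was a small row beside Diablo. It lies at chr5:123512082-123525488 (GRCm38) and shares 12095 bases with Diablo at chr5:123509765-123524176, both on the minus strand. Gm49027 had 48, 80 and 34 counts in AL + PBS and 549, 335 and 800 counts in AL + NaIO3. It had 124, 294 and 571 counts in IF + PBS and 326, 43 and 173 counts in IF + NaIO3. All 3 AL + PBS libraries were low, 1 IF + NaIO3 library was as low as they were, and the remaining 8 libraries were higher.

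Diablo had 65.3, 60.4 and 66.0 CPM in AL + PBS and 49.8, 65.9 and 35.5 CPM in AL + NaIO3. The log2 difference between AL + NaIO3 and AL + PBS, which chose Gm49027, was 3.49 (SE 0.33) for that row. For Diablo it was -0.34 (SE 0.21, adjusted p = 0.616 by edgeR), and the groups overlapped. On the log2(FPKM + 0.1) scale the Diablo difference was -0.022, with lengths behind the FPKM of 2328 to 2672 bases in AL + PBS and 2042 to 2109 bases in AL + NaIO3. For the summed counts of both rows it was 0.049 (SE 0.13, adjusted p = 0.932). The mean sum was 65.4 ± 2.70 CPM in AL + PBS and 67.4 ± 10.4 CPM in AL + NaIO3 (SD, n = 3). Gm49027 held 1.66% to 3.03% of the sum in AL + PBS and 15.3% to 37.7% in AL + NaIO3, so its large fold change came with a small number of counts. Without AL + NaIO3 replicate 3 the log2 difference of Gm49027 was 3.27 and that of Diablo -0.14.

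In IF + PBS against AL + PBS Gm49027 differed by 2.77 (SE 0.47, adjusted p = 0.153 by edgeR), without overlap of the groups, which was so for 21.9% of the genes tested. Without IF + PBS replicate 1 the value was 3.16 (adjusted p = 0.00519), and DESeq2 called the difference with all libraries (adjusted p = 7e-08). The interaction of diet and injection was -4.40 for Gm49027 (adjusted p = 0.113 by edgeR), and -4.19 (adjusted p = 0.106) without AL + NaIO3 replicate 3. The length behind the FPKM of Gm49027 was 1451 to 1926 bases, near neither of its annotated transcripts (4272 and 346 bases). Over the 12 libraries the coefficient of variation was 84.1% for Gm49027, 16.8% for Diablo and 9.88% for their sum. B3gnt4, a glycosyltransferase gene on the opposite strand inside the Diablo span, held at most 15 counts. Of the fixed list of genes of mitochondrial apoptosis around DIABLO, 19 of 19 were tested and 0 were called in IF + NaIO3 against AL + NaIO3, where 6 had an unadjusted p under 0.05 (11.7% of all genes did), 3 in each direction. The lowest unadjusted p, 0.0169, was that of Htra2, a mitochondrial protease, with a log2 difference of 0.37 (adjusted p = 0.338 by edgeR).

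Gm42669 was low in a single group. It lies at chr5:107507621-107580596 (GRCm38) on the plus strand. It begins within the last 3587 bases of Btbd8 and covers 1700028K03Rik, and 31630 of its bases lie over Glmn, a gene of the opposite strand. Gm42669 had 86, 167 and 73 counts in AL + NaIO3. In AL + PBS it had 1124, 1453 and 977 counts, in IF + PBS 1327, 1099 and 1194, and in IF + NaIO3 1507, 937 and 945. AL + NaIO3 did not overlap any other group, and against AL + PBS 18.1% of the genes tested did not overlap.

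The log2 difference between AL + NaIO3 and AL + PBS, which chose the row, was -3.27 (SE 0.39), and without AL + NaIO3 replicate 3 it was -2.98. The difference between IF + NaIO3 and AL + NaIO3 was 3.25 (SE 0.43, adjusted p = 0.0643 by edgeR), and 2.96 (adjusted p = 0.00999) without that library. This comparison shares the low AL + NaIO3 libraries with the choice. It was -0.010 (SE 0.16, adjusted p = 0.986 by edgeR) in IF + NaIO3 against AL + PBS. The interaction of diet and injection was 3.10 (SE 0.43, adjusted p = 0.0212 by edgeR), and 2.79 (adjusted p = 0.00471) without AL + NaIO3 replicate 3. It uses the comparison that chose the row, so it is not separate from the choice.

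1700028K03Rik had 349, 1316 and 392 counts in AL + NaIO3, and 332, 8 and 101 counts in AL + PBS. In the other groups it had 382, 274 and 0 counts (IF + PBS) and 298, 495 and 268 counts (IF + NaIO3). Its log2 difference between AL + NaIO3 and AL + PBS was 2.29 (SE 1.10, adjusted p = 0.530 by edgeR), and the groups overlapped. Of the AL + NaIO3 libraries, only replicate 2 held more 1700028K03Rik counts than every library of the other groups. The sum of Gm42669 and 1700028K03Rik was 52.7 CPM in AL + NaIO3 replicate 2 but at most 14.0 CPM in the other 2 AL + NaIO3 libraries, and it was 34.5 CPM or more in all other libraries. With Btbd8, the sum on the plus strand was 115, 104 and 113 CPM in AL + PBS and 80.6, 132 and 85.6 CPM in AL + NaIO3. Replicate 2, with the most 1700028K03Rik counts, lay above AL + PBS, and the other 2 AL + NaIO3 libraries lay below it. The log2 difference of this sum was -0.15 (SE 0.19, adjusted p = 0.834 by edgeR), and -0.40 (adjusted p = 0.315) without AL + NaIO3 replicate 2. Btbd8 made up most of that sum, and its own log2 difference was 0.033 (SE 0.11, adjusted p = 0.947).

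The length behind the FPKM of Gm42669 separated the same libraries. It was 3447, 3450 and 3455 bases in AL + NaIO3, and 3103 to 3143 bases in the other 9 libraries. The 2 annotated transcripts have 3445 and 3080 bases. The 3080-base transcript shared 93.8% of its 2931 stretches of 150 bases with 1700028K03Rik and 1.02% with Btbd8. The 3445-base transcript shared 0 of 3296 with 1700028K03Rik and 41.0% with Btbd8. The log2(FPKM + 0.1) difference between AL + NaIO3 and AL + PBS was -3.32 (SE 0.36), close to the -3.27 of the counts.

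**Figure D5:**
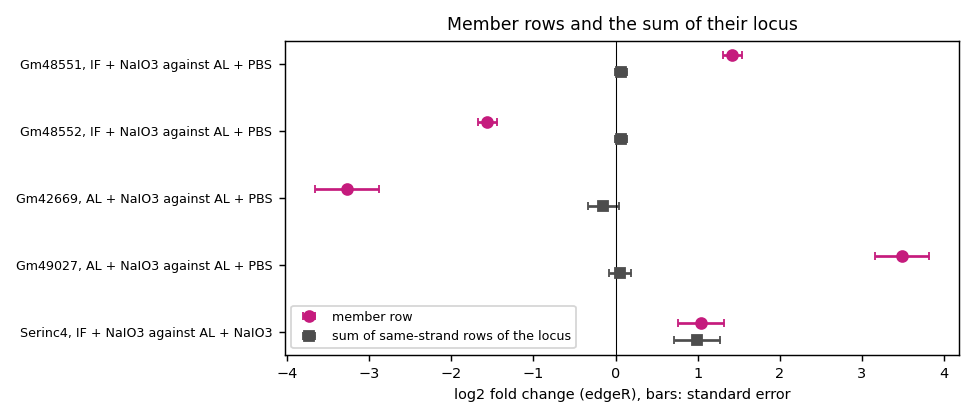
Log2 fold change by edgeR with its standard error for 5 members that overlap a row on their own strand (magenta circles) and for the sum of the rows on the same strand of their locus (grey squares), each in the comparison named on the y axis. The sums for Gm48551, Gm48552, Gm42669 and Gm49027 lie between -0.15 and 0.07, where the value for Gm42669 is -0.40 without AL + NaIO3 replicate 2, and that of Serinc4 with Ell3 lies at 0.99 beside 1.04 for Serinc4 alone.

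Cdcp3, named for its CUB domains, moved without its partner. It lies at chr7:131174402-131306451 (GRCm38) on the plus strand, inside the span of Fgfr2, a fibroblast growth factor receptor gene on the minus strand. Cdcp3 was 78.9, 75.3 and 81.0 CPM in AL + PBS, and 133, 157 and 175 CPM in IF + NaIO3. It was 168, 115 and 148 CPM in IF + PBS and 112, 125 and 73.2 CPM in AL + NaIO3. Both IF groups lay above AL + PBS without overlap, which was so in either direction for 21.9% (IF + PBS) and 17.8% (IF + NaIO3) of the genes tested, and AL + NaIO3 overlapped AL + PBS and IF + PBS.

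The log2 difference of Cdcp3 between IF + NaIO3 and AL + PBS, which chose it, was 0.98 (SE 0.10), and for its sum with Fgfr2 it was 0.90 (SE 0.099). In IF + PBS against AL + PBS it was 0.88 (SE 0.13, adjusted p = 0.153 by edgeR). That value was 0.74 (adjusted p = 0.00822) without IF + PBS replicate 1 and 1.02 (adjusted p = 0.00892) without IF + PBS replicate 2, and DESeq2 called it with all libraries (adjusted p = 2.39e-07). In IF + NaIO3 against AL + NaIO3 it was 0.58 (SE 0.21, adjusted p = 0.363 by edgeR), and 0.38 without AL + NaIO3 replicate 3. Fgfr2 had 191 to 805 counts, with the highest value in AL + NaIO3 replicate 3, and its log2 difference between IF + NaIO3 and AL + PBS was -0.013 (SE 0.22, adjusted p = 0.987 by edgeR).

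Ip6k2 makes inositol pyrophosphates from inositol hexakisphosphate. It lies at chr9:108783796-108806337 (GRCm38) with no overlapping row. Ip6k2 was 94.3, 99.6 and 118 CPM in AL + PBS, 161, 175 and 132 CPM in IF + PBS, 116, 156 and 73.1 CPM in AL + NaIO3, and 221, 184 and 158 CPM in IF + NaIO3. Its IF libraries all lay above the AL + PBS libraries, against the same 21.9% and 17.8% of genes without overlap. The log2 difference between IF + NaIO3 and AL + PBS, which chose it, was 0.85 (SE 0.12). In IF + PBS against AL + PBS it was 0.59 (SE 0.12, adjusted p = 0.175 by edgeR). Without IF + PBS replicate 1 it was 0.56 (adjusted p = 0.0263), under the fold limit for a call, and DESeq2 called the difference with all libraries (adjusted p = 0.00159). In IF + NaIO3 against AL + NaIO3 it was 0.70 (SE 0.27, adjusted p = 0.379 by edgeR), the lowest unadjusted p (0.0310) of the 14 genes of inositol pyrophosphate metabolism tested there, of which 0 were called. Without AL + NaIO3 replicate 3 it was 0.45.

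Serinc4 belongs to a family of multi-pass membrane proteins. It lies at chr2:121439059-121456781 (GRCm38) on the minus strand, over Ell3 on the same strand and over Hypk and Serf2 on the opposite strand. GENCODE M39 also places over it Pdia3, which did not overlap it in the deposited coordinates, and Gm75262 and Gm22953, which were not in the count table. Serinc4 was 45.8, 30.6 and 35.6 CPM in AL + PBS, 51.7, 33.4 and 31.6 CPM in IF + PBS, 24.4, 28.6 and 12.5 CPM in AL + NaIO3, and 41.4, 48.7 and 45.0 CPM in IF + NaIO3. AL + NaIO3 was the lowest group and did not overlap the others, and against IF + NaIO3 18.9% of the genes tested did not overlap. Serinc4 was chosen from IF + NaIO3 against AL + NaIO3, where its log2 difference was 1.04 (SE 0.28) and edgeR did not call it (adjusted p = 0.253). Without AL + NaIO3 replicate 3 it was 0.76 (adjusted p = 0.0681), and DESeq2 called it with all libraries (adjusted p = 0.0180), as it called 2.93% of genes.

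In that comparison the partners of Serinc4 did not fall where it rose. Ell3, an elongation factor gene, had 29 to 106 counts, and its log2 difference in the same comparison was 0.14 (SE 0.54, adjusted p = 0.929 by edgeR). Hypk, a chaperone-like partner of the N-terminal acetyltransferase NatA, differed by 0.48 (SE 0.19, adjusted p = 0.399) and Serf2 by 0.23 (SE 0.14, adjusted p = 0.537), both in the direction of Serinc4. The sum of Serinc4 and Ell3 differed by 0.99 (SE 0.28, adjusted p = 0.277). Of the 5 SERINC genes 0 were called in this comparison, and 2 of 5 had a positive difference.

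Correlations of log2 CPM over the 12 libraries were computed for the 10 pairs in which both rows averaged at least 10 counts. Of these, 6 were negative, and so were 40.0% of 2255 overlapping pairs over the whole table, 45.6% of the 688 on the same strand and 39.2% of 13730 adjacent pairs that did not overlap. The smallest adjusted permutation p of the 10 was 0.0820. Gm49027 and Diablo gave r = -0.56 (permutation p = 0.0410, adjusted 0.103) and Spearman's coefficient = -0.55 (permutation p = 0.0706, adjusted 0.320). Without the 2 libraries farthest from the Gm49027 median r was -0.49, over deviations from group means it was -0.42, and over the 6 IF libraries, which the choice did not use, it was -0.62 (exact permutation p = 0.189). Neither coefficient over the 12 libraries passed the threshold after adjustment over the 10 pairs.

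For Gm48551 with Gm48552 or Dohh and for Gm42669 with 1700028K03Rik the libraries fell into separate clusters, and a pooled coefficient is not given. In 5 libraries Gm48551 was 121 to 167 CPM and Gm48552 33.2 to 45.6 CPM. In the other 7 Gm48551 was 47.6 to 70.1 CPM and Gm48552 26.7 to 129 CPM. Within those 7, r was 0.52 (exact permutation p = 0.176) and Spearman's coefficient was 0.61 (exact permutation p = 0.167), and r was -0.11 without the 2 farthest libraries. No coefficient is given for the cluster of 5 libraries. Among the 9 libraries in which Gm42669 was above 25 CPM, its r with 1700028K03Rik was -0.068 (permutation p = 0.837).

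A further measure was the variance of the summed CPM divided by the sum of the variances, which is below 1 where rows trade off. It was 0.287 for Gm48551 with Gm48552, 0.303 for Gm49027 with Diablo and 0.501 for Gm42669 with 1700028K03Rik. The median over the 688 same-strand overlapping pairs was 1.01. The libraries that chose these rows enter the measure, so it is a description and gives no separate support. Serinc4 with Ell3 was at 1.04 and Cdcp3 with Fgfr2 at 0.946. Serinc4 and Hypk, on opposite strands, had the highest coefficient of the 10 pairs (r = 0.80, permutation p = 0.0118, adjusted 0.0820, and Spearman's coefficient = 0.54, permutation p = 0.0744, adjusted 0.320). It was 0.41 without IF + PBS replicate 1 and AL + NaIO3 replicate 3, so that the relation rested on those 2 libraries. Over the PBS libraries of both diets, which the choice of Serinc4 did not use, r with Hypk was -0.30 (exact permutation p = 0.558). There r was -0.12 with Ell3 (exact permutation p = 0.815) and -0.44 with Serf2 (exact permutation p = 0.378).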

How the data were processed

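Poly-A RNA libraries of 12 mice were analysed (26364665 to 43046950 counts each). The authors deposited whole-number read counts per protein-coding gene and FPKM values. Their processing notes name HISAT2, StringTie, DESeq2, edgeR and GRCm39, and the counting program, its strand setting and its rule for shared reads are not given in the sources used here. The labels name a stranded kit and paired-end reads, the methods single-end reads. Coordinates are those of the deposited table: 16 of 16 rows matched by symbol lay at their GRCm38.p6 RefSeq position, while 1 of 18 matched by gene ID overlapped its GRCm39 position, so GENCODE M39 was used by gene ID only, for strand, transcript length and sequence. Gm10964 had no match there. Columns of the authors' own comparisons (fold changes and p-values) were not used.

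Counts were tested with the quasi-likelihood test of edgeR 4.0.16 (R 4.3.3) on the 6 libraries compared, or all 12 for the interaction, with TMM scaling, filterByExpr and Benjamini-Hochberg adjustment over all genes; standard errors came from the fold change and its F statistic. Calls needed adjusted p below 0.05 with a fold change no smaller than 1.5 (no fold limit for the interaction). CPM used TMM factors, and correlations used log2 CPM (prior count 2), tested by 100000 permutations or exact enumeration, two-sided. FPKM was used as log2(FPKM + 0.1) in limma 3.58.1. DESeq2 1.42.0 was an alternative. The fit was tested on simulated data for AL + NaIO3 against AL + PBS: over 15612 genes it recovered 50 of 100 changes of 2-fold and 78 of 100 of 4-fold, with 7 false calls in all. Of the fixed photoreceptor list 1 marker is not reported here. No 2 libraries of a group agreed within sampling noise (lowest chi-square per gene 13.2). Named genes were the 10 members, all rows that overlapped them, the 3 genes most and least correlated with Hipk1, and from each gene list those called or with the lowest p in IF + NaIO3 against AL + NaIO3. The members and lists were chosen with earlier results of these data known. With 3 mice a group, p-values measure the spread between these mice.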

Additional observations from a re-analysis of the deposited data

Results flagged for a closer look

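Gm42669 was set apart by a test of the difference between diets, which contains the comparison that chose the row and is not separate evidence. Its response to NaIO3 differed between IF and AL mice by 3.10 on the log2 scale (SE 0.43, adjusted p = 0.0212, edgeR over 12 libraries). In AL mice the NaIO3 libraries were lower in 3 of 3 cases, at 73 to 167 counts against 977 to 1453 in AL + PBS. In IF mice they were 937 to 1507 counts against 1099 to 1327, and the groups overlapped. The sum of the rows on the plus strand of the locus gave an interaction of 0.26 (SE 0.24, adjusted p = 0.679). Btbd8 made up most of that sum. The sum of Gm42669 and 1700028K03Rik alone was 12.5 to 52.7 CPM in AL + NaIO3 and 34.5 CPM or more in the other groups. In 7 of 12 fits that left out a single library the adjusted p of the Gm42669 interaction was 0.05 or more (range 0.000296 to 0.121), with a log2 difference of 2.79 to 3.68.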

How the results depend on the processing

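The count of members called moved with the processing. In AL + NaIO3 against AL + PBS 2 members were called, and 0 of 7 loci when the rows of a locus were summed, on all strands or on the same strand. In IF + NaIO3 against AL + NaIO3 1 was called (0.0383% of all genes), but 4 with DESeq2 (2.93% of all genes). It was 3 without a filter, 3 with all 12 libraries fitted together, 3 with the replicate block and 2 with limma on log2(FPKM + 0.1). The shares of all genes called under these last settings are not given. In IF + PBS against AL + PBS 0 were called (0% of all genes), and 3 with DESeq2 (1.19% of all genes). In IF + NaIO3 against AL + PBS 5 were called, but 0 with 12 libraries fitted together (adjusted p from 0.979 to 0.992, with log2 differences of -2.77 for Hipk1, 1.43 for Gm48551, -1.56 for Gm48552, 0.99 for Cdcp3 and 0.86 for Ip6k2), 2 loci with either sum and 3 with limma. For the interaction 1 was called (0.0313% of all genes), 2 with DESeq2 (1.25% of all genes) and 0 loci with either sum. The cause was not tested. Leaving out 1 library gave 0 to 2, 0 to 4, 0 to 2, 0 to 1, 3 to 5 and 0 to 2 calls in AL + NaIO3 against AL + PBS, IF + NaIO3 against AL + NaIO3, IF + PBS against AL + PBS, IF + NaIO3 against IF + PBS, IF + NaIO3 against AL + PBS and the interaction. The direction of each called member was kept in every fit run. Hipk1 in IF + NaIO3 against AL + NaIO3 lost its call with limma (adjusted p = 0.0649), where Gm48551 and Gm42669 were called instead. It also lost it in 4 of 6 fits without a library, AL + NaIO3 replicate 1 or 2 or IF + NaIO3 replicate 1 or 2 (adjusted p 0.0551 to 0.236). Over the 6 fits its log2 difference stayed between -3.05 and -2.55. Gm42669 and Gm49027 in AL + NaIO3 against AL + PBS each lost it in 4 of 6, without any 1 of the AL + PBS libraries or AL + NaIO3 replicate 1 (adjusted p up to 0.376 and 0.246). Their log2 differences stayed between -3.85 and -2.98 and between 3.27 and 3.69. Ip6k2 in IF + NaIO3 against AL + PBS lost it in 5 of 6, all but IF + NaIO3 replicate 3 (adjusted p up to 0.182, log2 difference 0.72 to 0.96). It also lost it with upper quartile scaling (0.0561), limma (0.225) and either sum (0.0651), although it has no overlapping row. Cdcp3 lost it with limma (0.0643) and without IF + NaIO3 replicate 2 (0.0521). The 6 negative pairs were 6 to 8 when 1 library was left out. Same-numbered libraries deviated together by r = -0.10 to 0.14, above 0.1 in 1 of 18 pairs, and 3 of 12 libraries correlated best with a library of their own number, so the numbers did not pair the mice. Under the replicate block Ip6k2 lost its call (adjusted p = 0.0893). The same-strand sums and their fits without 1 library, the FPKM lengths and limma were added after the data were seen. Leaving out 1 library moved the same-strand sum with Gm49027 from -0.068 (without AL + NaIO3 replicate 2) to 0.15 and that with Gm42669 from -0.40 (without the same library) to -0.025. Gm10964 and B3gnt4 did not pass the edgeR filter in these comparisons, and DESeq2 did not call them.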
